A study of Mus musculus with 16 samples.

Results

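The cytosolic ribosome of mammals is built from a small and a large subunit, each a set of ribosomal RNAs covered by many proteins, most of which are encoded by a single active gene. Their mRNAs are among the most abundant in a dividing cell and often begin with a C followed by a run of C and T letters, the terminal oligopyrimidine (TOP) motif, through which the mTOR kinase and LARP1 control their translation. The genes of these proteins were followed in mouse pre-B cells, B-lineage precursors that expand in the bone marrow and from which BCR-ABL1-positive acute lymphoblastic leukaemia can arise. Genes were taken by name: symbols that start with Rpl or Rps followed by a number and an optional short suffix, together with Rplp0, Rplp1, Rplp2 and Rpsa. This rule found 84 genes among the 23279 symbols of the expression table, 33 of the small subunit and 51 of the large subunit. It used no measured value.

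PolyA RNA of 16 pre-B cell samples was sequenced, with 4 samples in each of 4 groups: cells with BCR-ABL1 and null for SHP2, cells with BCR-ABL1 and wild type for SHP2, cells without BCR-ABL1 and null for SHP2, and cells without BCR-ABL1 and wild type for SHP2. BCR-ABL1 is the fusion tyrosine kinase of chronic myeloid leukaemia and of a subset of acute lymphoblastic leukaemia, and SHP2, encoded by Ptpn11, is a phosphatase that relays kinase signals to RAS. The labels write the 2 states of the fusion as BCR-ABL WT (+/+) and BCR-ABL NULL (-/-), and those of the phosphatase as SHP2 WT (+/+) and SHP2 NULL (-/-). They give no strain, age, allele or Cre driver, no way in which the fusion was introduced, and leave unsaid if samples of one group came from different animals, cultures or clones. A p-value here therefore reflects sample-to-sample spread, part of which may be technical.

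Values are FPKM, fragments scaled to transcript length and to the mapped fragments of the library. Levels can be set side by side between genes only roughly, since many of these genes share sequence with other genes, as described below. FPKM holds no read counts, and the depth of each library is unknown. Ptpn11 (GRCm38 chr5:121130533-121191397) averaged 4.52 ± 1.21 FPKM in SHP2-null cells with BCR-ABL1 and 17.01 ± 0.957 FPKM in wild-type cells with BCR-ABL1 (SD, n = 4 each). Without BCR-ABL1 the averages were 5.79 ± 2.03 FPKM in SHP2-null cells and 16.7 ± 0.647 FPKM in wild-type cells (SD, n = 4 each), and in both settings the 4 null libraries lay below the 4 wild-type libraries (two-sided exact permutation test, p = 0.0286, the smallest that 4 against 4 allows). The 9 pre-B and B-lineage markers (among them Cd79a, Vpreb1 and Pax5) were all detected and summed to 1767 to 2388 FPKM per library, while erythroid and megakaryocyte markers summed to at most 10.7, T and NK markers to at most 2.78 and stromal markers to at most 0.101 FPKM. The myeloid markers summed to 421 FPKM in replicate 2 of the SHP2-null cells without BCR-ABL1, of which Lyz2 gave 403 FPKM; Lyz2 was at most 34.3 FPKM in the other 15 libraries. In bulk RNA, fewer cells of a type and less RNA per cell cannot be told apart.

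Ribosomal protein mRNAs made up a large and even part of the measured transcript pool in every library. The 84 genes held 24.0% ± 0.894 of a library's summed FPKM (SD, n = 16), with a range of 21.8% to 25.7%. Of these genes, 76 had a mean of at least 100 FPKM and 48 a mean of at least 1000 FPKM, and only 69 genes of any kind reached that level. The median of the genes' means was 1130 FPKM for the 80 ribosomal protein genes that entered the tests, against 9.80 FPKM for all 10210 genes tested. A gene was tested when at least 4 libraries had at least 1 FPKM.

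The highest levels were found in genes of both subunits. Rps12, a small-subunit protein, averaged 2946 FPKM and ranked 1st or 2nd among the ribosomal protein genes in every library. Rpl41, the smallest ribosomal protein, averaged 2805 FPKM, followed by the large-subunit genes Rpl39 at 2297 FPKM and Rpl32 at 2178 FPKM and the small-subunit gene Rps20 at 2167 FPKM. Levels fell within a narrow band for most genes, with 71 of the 84 means between 400 and 3000 FPKM. Small-subunit genes had a median of 1210 FPKM and large-subunit genes of 1028 FPKM.

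A few core genes, chosen after their values were seen, lay far below that band. Rps27 averaged 5.91 FPKM, Rpl34 17.8 FPKM, Rpl30 56.8 FPKM, Rps15a 123 FPKM and Rpl26 148 FPKM, although each encodes a core ribosomal protein. Rps27 has an expressed paralog, Rps27l, described below. For Rpl34 a processed pseudogene entry, Rpl34-ps1, was listed at 993 to 1382 FPKM in the same libraries, while Rpl34 itself was at 13.5 to 25.7 FPKM. In the GENCODE M21 transcripts, 40.1% of the 100-base windows of Rps27 also occur in its retrogene Rps27rt, and 57.8% of those of Rpl30 occur in other genes. For Rpl34, Rps15a and Rpl26 the shares are lower, at 5.79%, 2.56% and 19.1%. Of the 80 tested genes, 75 shared at least 1 such window with another annotated gene, with a median of 27.0% of windows, and the sources used here do not give how reads matching several copies were counted. The levels of these genes, and of any with near-identical pseudogenes, are therefore uncertain.

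**Figure D1:**
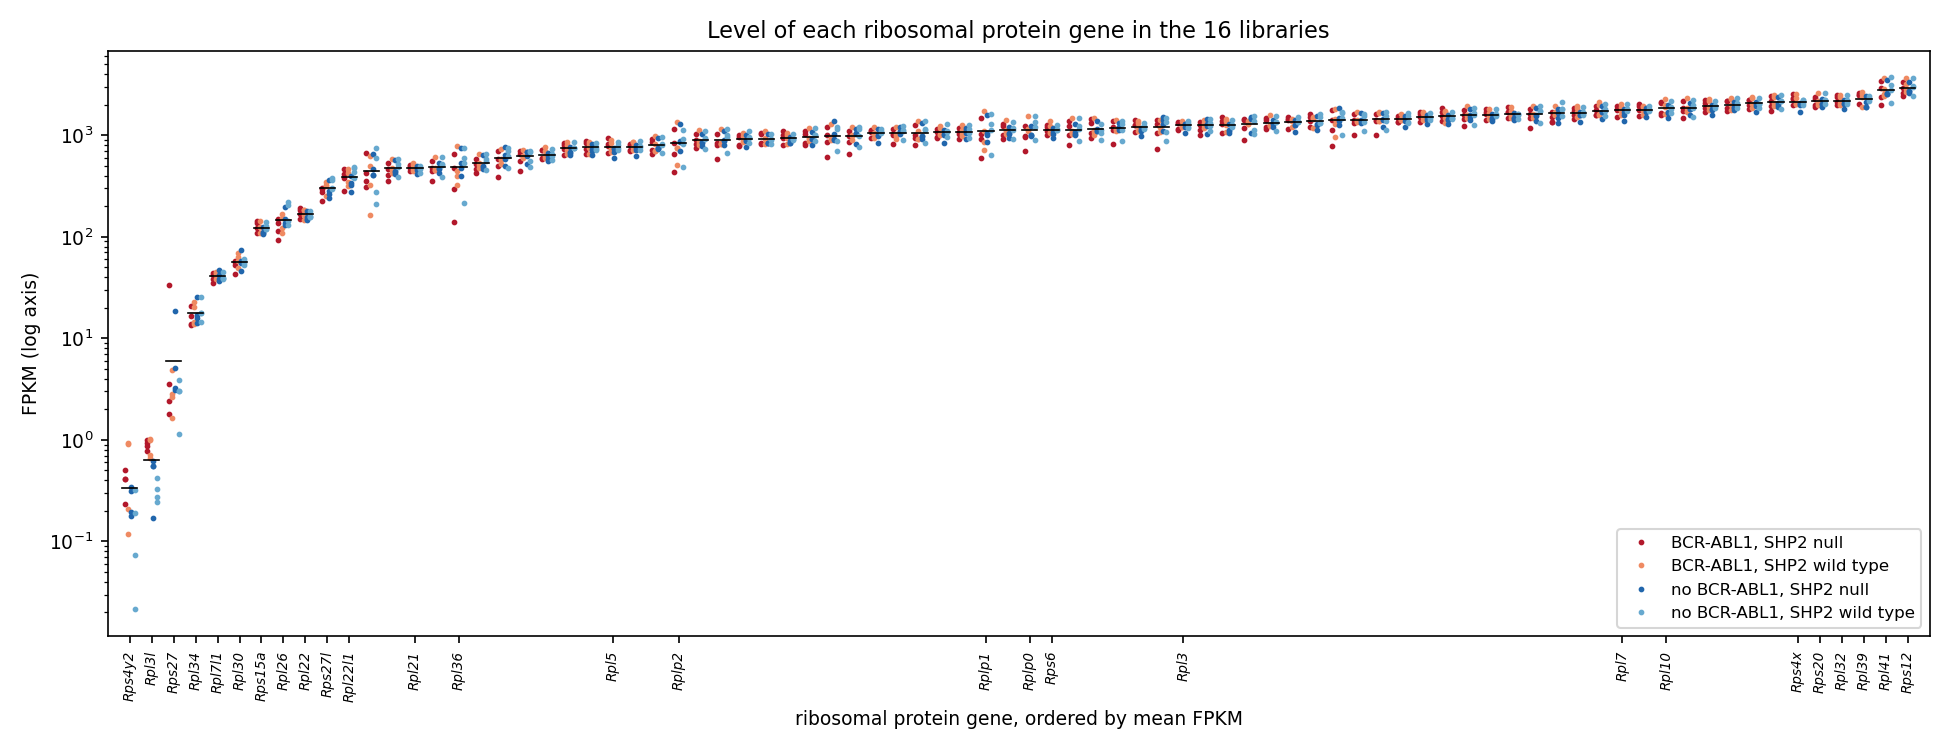
FPKM of each ribosomal protein gene in the 16 libraries, on a log axis, ordered by mean (black bars) and coloured by group, with names for some of the genes described in the text. Rpl10l, at 0 in every library, and Rpl39l, with a mean of 0.0356 FPKM, are not drawn. Most genes sit between 400 and 3000 FPKM in all groups, with Rps27 and Rpl34 far below and Rps12 and Rpl41 at the top.

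Paralogs with known tissue-restricted roles were nearly silent. Rpl10l, a retrogene that replaces Rpl10 in male germ cells, was listed at 0 in all 16 libraries, while Rpl10 averaged 1847 FPKM. Rpl39l, another germ-cell paralog, averaged 0.0356 FPKM against 2297 FPKM for Rpl39. Rps4y2 averaged 0.335 FPKM against 2139 FPKM for Rps4x, the X-linked gene, and RefSeq gives Rps4y2 as an older name of Rps4l. Rpl3l, the striated-muscle form of Rpl3, averaged 0.633 FPKM against 1247 FPKM for Rpl3. These 4 paralogs were too low for the test.

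The other paralogs were well expressed. Rpl22l1 averaged 387 FPKM, above its partner Rpl22 at 166 FPKM, and was the higher of the pair in all 16 libraries. In mouse, the Rpl22 protein is known to repress Rpl22l1. Rps27l, a p53-regulated paralog, averaged 302 FPKM, above the 5.91 FPKM listed for Rps27. Rpl7l1, a ribosome assembly protein, averaged 40.9 FPKM against 1756 FPKM for Rpl7.

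The letters at the start of transcription are shown for 8 genes described in the results below and for Rpl38, to set genes with a TOP-like run beside genes without one in the annotation. Each line gives the 20 bases before and the first 10 bases from the RefSeq-annotated start (GRCm38.p6), 5′ to 3′, with a run of a C and at least 4 further C or T letters that begins within 5 bases of the start in capitals.
Rps6: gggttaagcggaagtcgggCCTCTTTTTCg
Rps27: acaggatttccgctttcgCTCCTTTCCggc
Rplp2: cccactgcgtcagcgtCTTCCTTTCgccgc
Rpl22l1: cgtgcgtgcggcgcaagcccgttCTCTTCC
Rpl35: gaagtcggccccgccCTTTCCTCTTTCTCT
Rpl38: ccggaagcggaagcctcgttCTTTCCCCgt
Rplp0: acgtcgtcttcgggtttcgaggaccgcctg
Rpl6: gatcttggtcacctcccgtcattgcttata
Rps16: taaagcccgcttctgtcgtgacgtagcact
Rps6 lies at chr4:86857358-86857387 on the minus strand, Rps27 at chr3:90213639-90213668 on the minus strand, Rplp2 at chr7:141447631-141447660 on the plus strand and Rpl22l1 at chr3:28805488-28805517 on the plus strand. Rpl35 lies at chr2:39005122-39005151 on the minus strand, Rpl38 at chr11:114668560-114668589, Rplp0 at chr5:115559447-115559476, Rpl6 at chr5:121204481-121204510 and Rps16 at chr7:28350669-28350698, these 4 on the plus strand. The run begins exactly at the annotated start in Rpl38 and from 4 bases before to 3 bases after it in Rps6, Rps27, Rplp2 and Rpl22l1. In Rpl35 the capitals begin 5 bases before the start, the edge of the search, and the 2 letters before them are also C.

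Such a run was found at 41.3% of the 75 annotated starts of the 63 ribosomal protein genes that the promoter table holds, at 19.8% of the 9713 starts of tested genes and at 18.4% of all 32851 starts. Within the 300 bases from 250 before to 50 after the start, on either strand, CCGGAAG (an ETS-type motif) was found at 36% of ribosomal protein starts, 19.6% of tested-gene starts and 8.86% of all starts. AAGATGG, the core of the YY1 motif, was found at 16%, 7.68% and 6.34% of the same 3 sets. GGGCGG, the GC box, was found at 60%, 63.7% and 35.7%, and TATAAA at 9.33%, 6.53% and 13.6%. These are counts of letters and say nothing of binding, and where a run is missing the annotated start may differ from the start used in these cells, which was not tested.

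The summed level of the ribosomal protein genes overlapped between all groups. The 84 genes summed to 91475 ± 10919 FPKM in SHP2-null cells with BCR-ABL1 and to 95529 ± 10476 FPKM in wild-type cells with BCR-ABL1 (SD, n = 4 each). Without BCR-ABL1 the sums were 90161 ± 9534 FPKM in SHP2-null cells and 95152 ± 10890 FPKM in wild-type cells (SD, n = 4 each). Differences between groups in these sums were smaller than the SD within groups. As a share of each library's summed FPKM, the genes held 24.0% ± 0.774 and 24.1% ± 0.690 in SHP2-null and wild-type cells with BCR-ABL1, and 23.3% ± 1.01 and 24.5% ± 0.979 in SHP2-null and wild-type cells without it. The lowest share, 21.8%, came from replicate 2 of the SHP2-null cells without BCR-ABL1, the library with 403 FPKM of Lyz2, and the other 3 libraries of that group held 23.8% to 23.9%. For SHP2 loss without BCR-ABL1 the share differed by −1.18 percentage points, more than the SD within groups. The difference was −0.67 points without replicate 2 of the null cells. Whether the myeloid transcripts and the low share are connected was not tested.

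**Figure D2:**
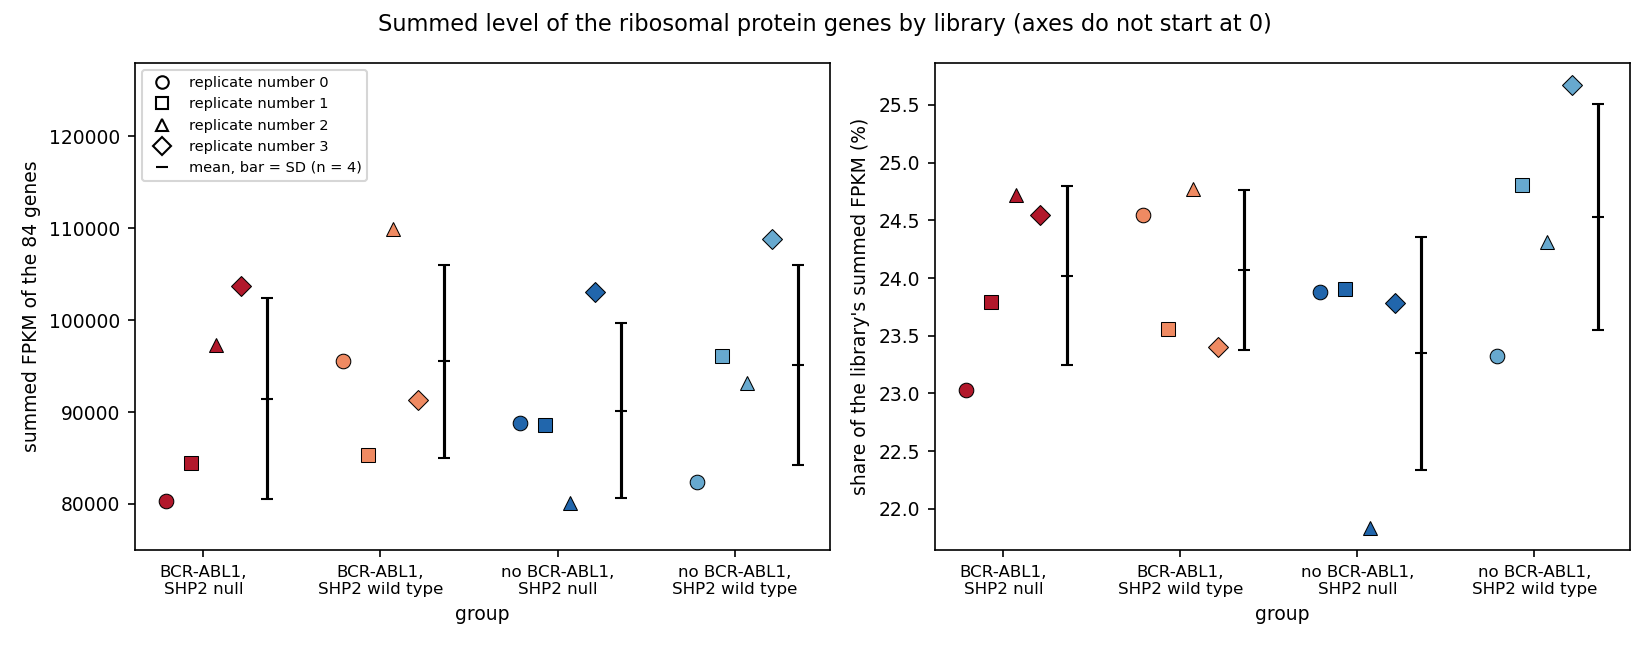
Summed FPKM of the 84 genes (left) and their share of each library's summed FPKM in percent (right), 1 point per library, with marker shapes for the replicate numbers and black bars for the mean and SD of each group (n = 4). All 4 groups overlap in both panels, and the lowest share is 21.8%.

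SHP2 loss in cells with BCR-ABL1 left no ribosomal protein gene past the threshold. Changes were tested with limma on log2(FPKM + 1), and a gene counted as changed at an adjusted p below 0.05 after Benjamini-Hochberg adjustment over all 10210 genes. By this rule 0 of the 80 tested genes changed, against a background of 0.313% of all genes tested, and 0 had an unadjusted p below 0.05 by limma, against 3.65% of all genes. No ribosomal protein gene separated the 4 null from the 4 wild-type libraries without overlap, which 3.1% of all genes did. The median change of the 80 genes was −0.07 on the log2 scale, against −0.02 for all genes, with 61 of the 80 below 0. The count below 0 was 42 with each library scaled to its non-ribosomal genes, 46 after quantile normalization and 55 with median-ratio scaling. With single libraries left out it ran from 39, without replicate 2 of the wild-type cells, to 78. The 95% interval of the change lay within ±0.5 on the log2 scale for 64 of the 80 genes and within ±1 for 77 of them.

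The lowest and highest estimates in that comparison are given next. Rplp0, the base of the stalk that recruits translation factors to the large subunit, had 692, 959, 985 and 1219 FPKM in SHP2-null cells with BCR-ABL1, against 1089, 1145, 1544 and 1145 FPKM in wild-type cells with BCR-ABL1. The groups overlapped in 1 null library, and the log2 change was −0.37 ± 0.18 (SE; limma, adjusted p = 1.00, unadjusted p = 0.065, 95% interval −0.76 to 0.03). Rpl36, a large-subunit protein, had 140, 481, 297 and 656 FPKM in SHP2-null cells and 327, 442, 789 and 392 FPKM in wild-type cells, an estimate of −0.44 ± 0.45 that became −0.02 without null replicate 0. Rps2, a small-subunit protein near the mRNA entry channel, had an estimate of −0.22 ± 0.13. In the other direction stood Rps27 at 0.71 ± 0.66, Rps16 at 0.23 ± 0.42 and Rpl17 at 0.05 ± 0.12. Rps27 stood at 33.8 FPKM in null replicate 1 but did not exceed 4.82 FPKM in the other 7 libraries with BCR-ABL1, and its estimate was −0.12 without that library.

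For SHP2 loss in cells without BCR-ABL1, the ribosomal protein gene with the lowest adjusted p was Rpl22l1, which did not pass the threshold. It had 322, 336, 273 and 398 FPKM in SHP2-null cells and 433, 376, 480 and 484 FPKM in wild-type cells. Only the highest null library overlapped the lowest wild-type library. The log2 change was −0.42 ± 0.16 (SE; limma, unadjusted p = 0.0198, adjusted p = 0.218), with an adjusted p of 0.0662 when the replicate number was a block in the fit. It passed in 1 fit chosen after seeing the data, with that block and scaling to the non-ribosomal genes (limma, adjusted p = 0.0463). That fit called 396 of 10210 genes for this comparison. The adjusted p of Rpl22l1 was 0.461 by limma without replicate 2 of the null cells. Its partner Rpl22 was level, with 151, 148, 157 and 178 FPKM in SHP2-null cells and 156, 159, 157 and 180 FPKM in wild-type cells (−0.04 ± 0.10). With BCR-ABL1 present the estimate for Rpl22l1 was −0.01 ± 0.16, and the difference between both SHP2 effects was 0.41 ± 0.23 (limma interaction, adjusted p = 0.852), which does not show that they differ.

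Over all ribosomal protein genes in cells without BCR-ABL1, 0 of 80 passed the threshold for SHP2 loss by limma, against 1.54% of all genes tested, and 1 had an unadjusted p below 0.05, against 16.1% of all genes. The number at an unadjusted p below 0.05 was 10 with scaling to the non-ribosomal genes and 17 with the replicate block as well. The share of all genes below 0.05 in those other fits is not given here, and the 16.1% is not their background. With the replicate number as a block alone, again 0 ribosomal protein genes passed the threshold, while the number of all genes called was 587 in place of 157. None of the 80 separated the groups, which 9.09% of all genes did. The median change was −0.08 on the log2 scale against 0.02 for all genes, and 64 of 80 lay below 0. Without replicate 2 of the null cells, the library with the myeloid marker, the median was −0.03 and 50 lay below 0. Over all single libraries left out, the count ran from 42, without replicate 3 of the wild-type cells, to 74, without their replicate 0. After quantile normalization 48 lay below 0, and 66 did with scaling to the non-ribosomal genes and with median-ratio scaling. Rps27l had 284, 263, 240 and 362 FPKM in SHP2-null cells and 304, 296, 364 and 381 FPKM in wild-type cells, an estimate of −0.24 ± 0.14 with an adjusted p of 0.438 by limma and of 0.152 with the replicate block. Rps27l was lower in the null library of each of the 4 same-number pairs, and likewise in the 4 pairs with BCR-ABL1, where the estimate was −0.17 ± 0.14. How many of all genes do so is not given here, and the labels do not say that the number marks a pair. The next lowest estimate was that of Rplp0 at −0.23 ± 0.18, and the highest were those of Rps27 at 0.90 ± 0.66, Rps16 at 0.23 ± 0.42 and Rplp2 at 0.17 ± 0.33. Rps27 again rested on 1 library, with 18.7 FPKM in null replicate 2 and 1.14 to 5.09 FPKM in the other 7 libraries without BCR-ABL1, and its estimate was 0.39 without it.

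Of the 5 comparisons tested, BCR-ABL1 in SHP2 wild-type cells had the most genes called, and none of the tested ribosomal protein genes was among them. By limma 0 of 80 passed the threshold, against 4.67% of all genes tested, and 0 had an unadjusted p below 0.05, against 19.1% of all genes. None separated the 4 libraries with from the 4 without BCR-ABL1, which 11.7% of all genes did. With the replicate number as a block, 0 ribosomal protein genes and 1231 genes in all were called, in place of 477. The median change was 0.01 on the log2 scale against 0.04 for all genes, and 36 of 80 lay below 0. That count was 55 after quantile normalization, 56 with median-ratio scaling and 60 with scaling to the non-ribosomal genes. It was 13 and 67 without replicate 1 and replicate 2 of the cells with BCR-ABL1, and 62 and 8 without replicate 0 and replicate 3 of the cells without it. The interval lay within ±0.5 for 70 genes. In SHP2-null cells BCR-ABL1 likewise gave 0 of 80 by limma, against 1.26% of all genes, with 0 at an unadjusted p below 0.05, against 13.5% of all genes, a median of 0.00 and 39 of 80 below 0. The number at an unadjusted p below 0.05 by limma depended on scaling. It was 13 of 80 with scaling to the non-ribosomal genes and 21 with the block as well. For those other fits the share of all genes is not given here, and the 13.5% is not their background. The count below 0 was 18 without replicate 0 of the cells with BCR-ABL1 and 47 without their replicate 3. It was 24 and 46 without replicate 3 and replicate 2 of the cells lacking BCR-ABL1. With scaling to the non-ribosomal genes it was 32, and after quantile normalization 40. With the block and without the 4 libraries numbered 2 it was 60. Again 0 were called with the block, where all genes called were 538 in place of 129, and none separated the groups, which 7.07% of all genes did.

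Rpl26, which in human cells binds the p53 mRNA, had the lowest estimate of the tested genes in wild-type cells and one of the 3 lowest in null cells. It had 122, 110, 168 and 154 FPKM in wild-type cells with BCR-ABL1, against 131, 144, 206 and 220 FPKM in wild-type cells without it. In SHP2-null cells it had 115, 93.8, 136 and 150 FPKM with BCR-ABL1, against 130, 150, 137 and 196 FPKM without it. The groups overlapped in both settings, although each of the 8 same-number pairs was lower with BCR-ABL1. The share of all genes that do so is not given here, and the labels do not say that the number marks a pair. The log2 changes were −0.32 ± 0.20 in wild-type cells (SE; limma, adjusted p = 0.406) and −0.31 ± 0.20 in null cells (adjusted p = 0.532), and with the replicate block the adjusted p were 0.0704 and 0.113. Rpl26 passed in 2 fits chosen after seeing the data. In wild-type cells it passed with the block and non-ribosomal scaling (limma, adjusted p = 0.0303), where 713 of 10210 genes were called. In null cells it passed with the block but without the 4 libraries numbered 2 (limma, adjusted p = 0.0449), where 417 of 10210 were called. In SHP2-null cells the other low estimates were Rpl36 at −0.63 ± 0.45 and Rplp2 at −0.34 ± 0.33, and the high ones Rps4x at 0.24 ± 0.11, Rpl5 at 0.21 ± 0.12 and Rpl22l1 at 0.20 ± 0.16. In wild-type cells they were Rpl22l1 at −0.20 ± 0.16 and Rps16 at −0.16 ± 0.42, and, in the other direction, Rpl35 at 0.10 ± 0.16 and Rpl13a at 0.09 ± 0.16.

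**Figure D3:**
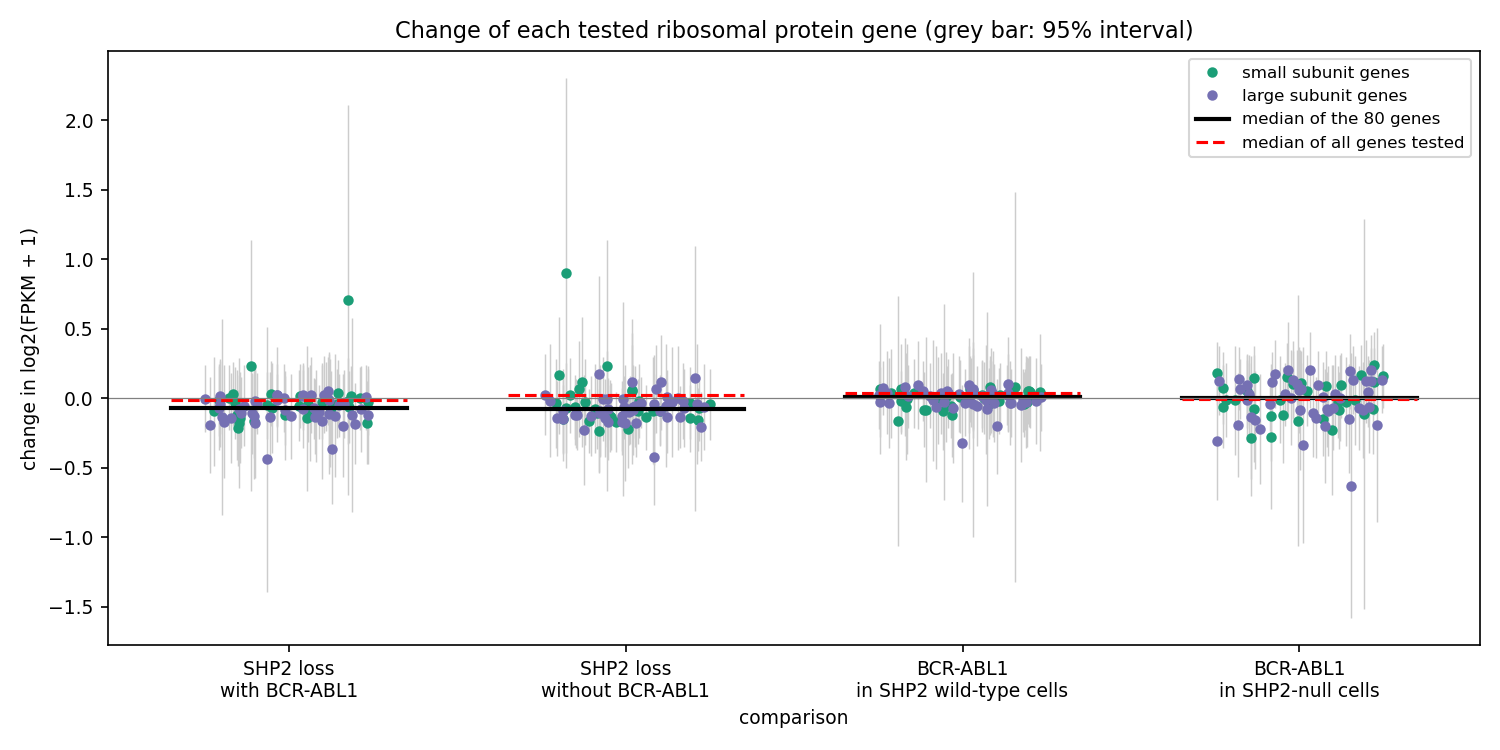
Change in log2(FPKM + 1) of each of the 80 tested ribosomal protein genes in 4 comparisons, with 95% intervals in grey, the median of the 80 genes in black and the median of all tested genes as a dashed red line. The medians of the 80 genes run from −0.08 to 0.01, and the widest intervals belong to Rps27.

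Below the threshold for testing, Rpl3l had higher values in the libraries with BCR-ABL1. It had 0.867, 0.774, 0.938 and 1.01 FPKM in SHP2-null cells with BCR-ABL1, and 0.662, 0.711, 1.02 and 0.988 FPKM in wild-type cells with BCR-ABL1. Without BCR-ABL1 it had 0.557, 0.621, 0.549 and 0.169 FPKM in SHP2-null cells and 0.421, 0.245, 0.326 and 0.276 FPKM in wild-type cells. All 8 libraries with BCR-ABL1 lay above the 8 without. When the filter on low values was dropped, its log2 change with BCR-ABL1 was 0.48 ± 0.10 in wild-type cells (SE; limma, adjusted p = 0.0148 over 18172 genes, of which 3.12% were called) and 0.37 ± 0.10 in null cells (adjusted p = 0.105). Rpl3l was singled out after its values were seen, and all of its values are near or below 1 FPKM.

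The interaction, which asks whether SHP2 loss acted differently with and without BCR-ABL1, called 0 of the 80 genes by limma and 0% of all genes, with 0 of the 80 at an unadjusted p below 0.05, against 5.79% of all genes. Its intervals were wider, and lay within ±0.5 for 41 of the 80 genes. The lowest estimates were Rpl36 at −0.58 ± 0.63, Rps15 at −0.33 ± 0.28 and Rplp2 at −0.31 ± 0.47, and the highest after Rpl22l1 were Rps27a at 0.20 ± 0.15 and Rpl5 at 0.19 ± 0.17.

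SHP2 loss gave the following values for genes known for roles in signalling or disease. Rps6, the ribosomal substrate of S6 kinase, averaged 1144 ± 124 and 1187 ± 153 FPKM in SHP2-null and wild-type cells with BCR-ABL1, and 1053 ± 99.3 and 1161 ± 65.7 FPKM in SHP2-null and wild-type cells without it (SD, n = 4 each). Rpl5 and Rpl11, which together with ribosomal RNA bind MDM2 and link ribosome assembly to p53, had estimates of 0.01 ± 0.12 and −0.05 ± 0.11 for SHP2 loss in cells with BCR-ABL1 and of −0.18 ± 0.12 and −0.07 ± 0.11 in cells without it. Rps19, the gene most often mutated in human Diamond-Blackfan anaemia, had estimates of −0.04 ± 0.13 and 0.02 ± 0.13 in the same comparisons. Rpsa, which also acts as a laminin-binding protein, had estimates of −0.07 ± 0.12 and −0.04 ± 0.12. None of these estimates passed the limma test.

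Of the 3 ribosomal protein genes near the targeted locus, 0 passed the limma test for SHP2 loss. Rpl6, a large-subunit protein, lies 13.1 kb from Ptpn11 at chr5:121204481-121209241, and Rplp0 and Rpl5 lie within 20 Mb of it. Rpl6 had 939, 969, 1075 and 1156 FPKM in SHP2-null cells with BCR-ABL1 and 1181, 1012, 1225 and 1035 FPKM in wild-type cells with BCR-ABL1, a log2 change of −0.11 ± 0.12. Without BCR-ABL1 it had 1038, 1004, 840 and 1133 FPKM in SHP2-null cells and 952, 1102, 1076 and 1285 FPKM in wild-type cells, a change of −0.14 ± 0.12. The groups overlapped in both cases. The 5 tested genes between 14 and 34 Mb of chromosome 17 (Rps2, Rps10, Rps18, Rps28 and Rpl10a) had medians of −0.07 and −0.04 for SHP2 loss with and without BCR-ABL1, and 0 of them passed the limma test.

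Single libraries ranged more widely than group averages. Relative to each gene's own mean over the 16 libraries, the median ribosomal protein gene ran from −0.22 in replicate 2 of the SHP2-null cells without BCR-ABL1, where 5 of 80 genes were above their mean, to 0.23 in replicate 2 of the wild-type cells with BCR-ABL1, where 79 of 80 were above it (log2 scale). The summed FPKM of all genes also differed, at 366883 in the first of these libraries and 443702 in the second, and the deviations are not scaled to it. The 4 libraries numbered 3 summed to 101764 ± 7423 FPKM of these genes and those numbered 0 to 86767 ± 6872 FPKM (SD, n = 4 each). As shares of the summed FPKM of all genes these were close, at 24.35% ± 1.00 and 23.69% ± 0.667 (SD, n = 4 each). The typical gene had a fold range of 1.50 between its highest and lowest library, and 10 of the 80 exceeded 2. The median SD within groups was 0.174 on the log2 scale for the 80 genes, 0.143 for all tested genes, and 0.166 for the 452 other genes with a mean of at least 100 FPKM.

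Variation was concentrated in a small set of genes. After Rps27, with an SD within groups of 1.05 on the log2 scale, came Rpl36 at 0.711, Rps16 at 0.671, and the stalk genes Rplp2 at 0.521 and Rplp1 at 0.513. The steadiest were Rpl21 at 0.103, Rpl4 at 0.121 and Rpl3 at 0.124. Rpl21 stayed between 415 and 528 FPKM in all 16 libraries. Rplp1 and Rplp2, whose acidic proteins form dimers on the stalk, were lowest in replicate 0 of every group. Rplp1 had 602, 717, 862 and 641 FPKM in those 4 libraries, given in the order of the groups above, and 862 to 1741 FPKM in the other 12. Rplp2 had 430, 511, 700 and 484 FPKM there and 647 to 1346 FPKM in the other 12. Rpl36 likewise had its lowest value of every group in replicate 0.

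**Figure D4:**
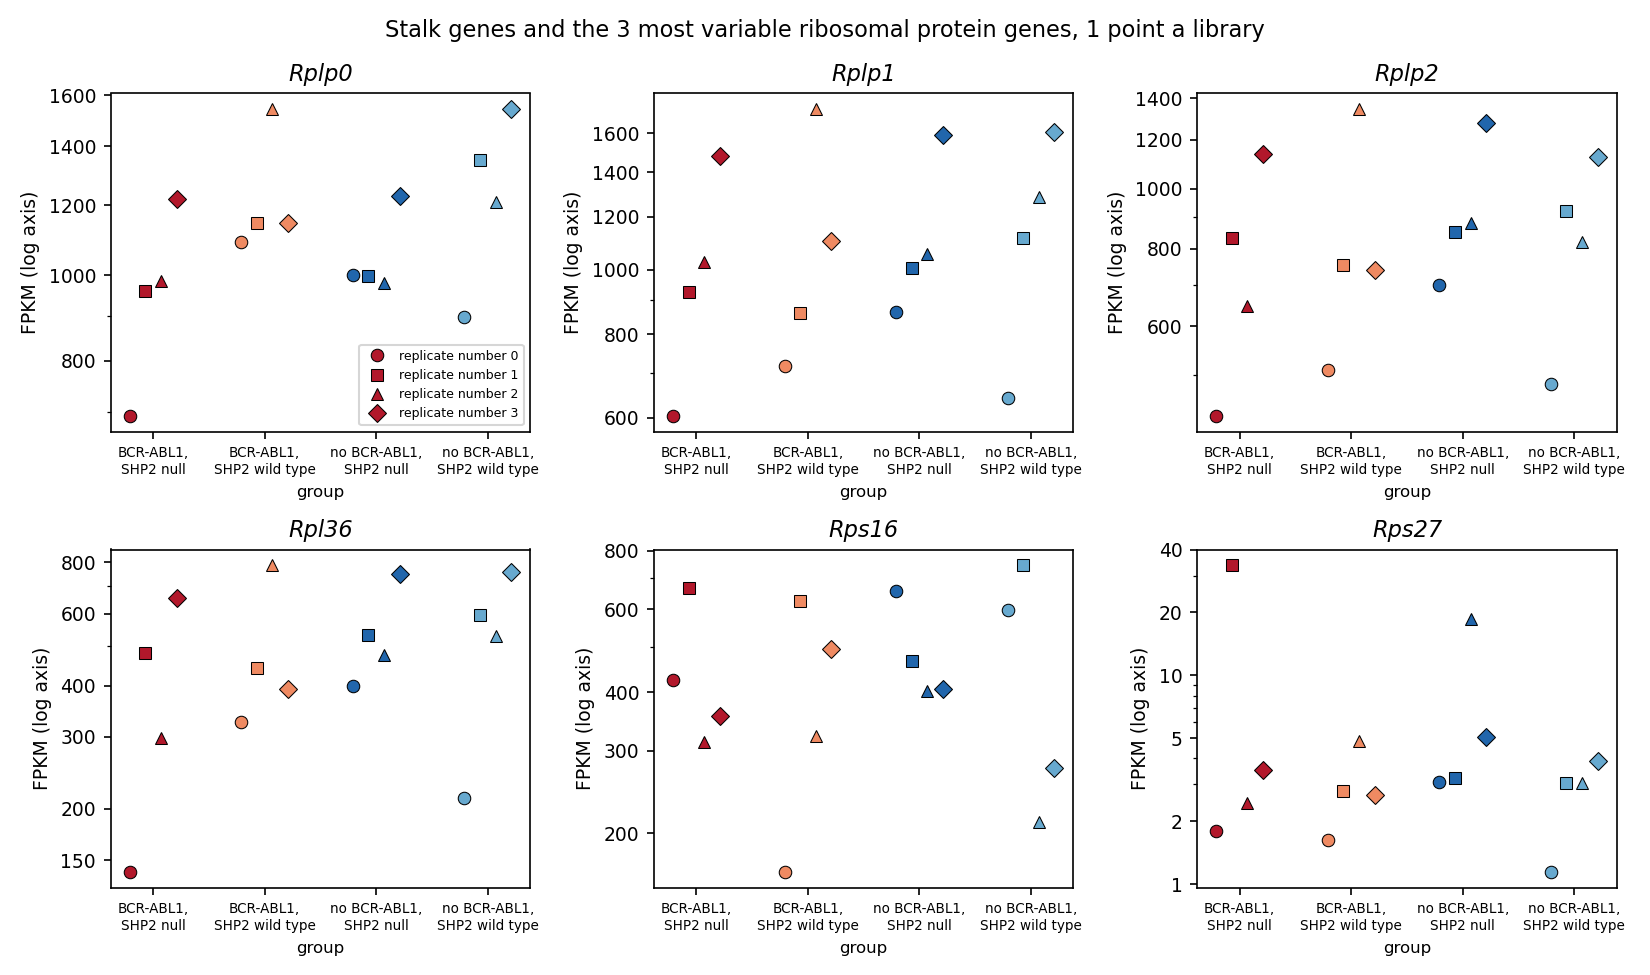
FPKM of Rplp0, Rplp1, Rplp2, Rpl36, Rps16 and Rps27 in each library on log axes, by group from left to right and with marker shapes for replicate numbers. Rplp1, Rplp2 and Rpl36 are lowest in replicate 0 of every group, Rps16 varies without regard to group, and Rps27 is high in 2 libraries.

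Genes with GC-rich transcripts moved apart from genes with GC-poor transcripts between libraries. The 20 genes with a transcript GC content of 55% or more had a median deviation from −0.50 in replicate 0 of the SHP2-null cells with BCR-ABL1 to 0.32 in replicate 2 of the wild-type cells with BCR-ABL1, while the 24 genes under 49% GC stood at 0.00 and 0.18 in these libraries. In replicate 0 of the wild-type cells without BCR-ABL1 the medians were −0.34 for the GC-rich and −0.01 for the GC-poor genes. Rpph1, a noncoding RNA without a polyA tail, was at 1193 and 16292 FPKM in the first 2 of these libraries, its lowest and highest values, and at 2028 FPKM in the third. The GC-rich deviations averaged −0.25 over the 4 libraries numbered 0 and 0.18 over those numbered 3. The part that RNA or library quality plays in this spread was not tested, and the cut-offs of 55% and 49% were set after the values were seen. The 10 most variable genes had a median GC content of 54.1% and a median transcript length of 513 bases, against 49.3% and 777 bases for the 10 steadiest.

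**Figure D5:**
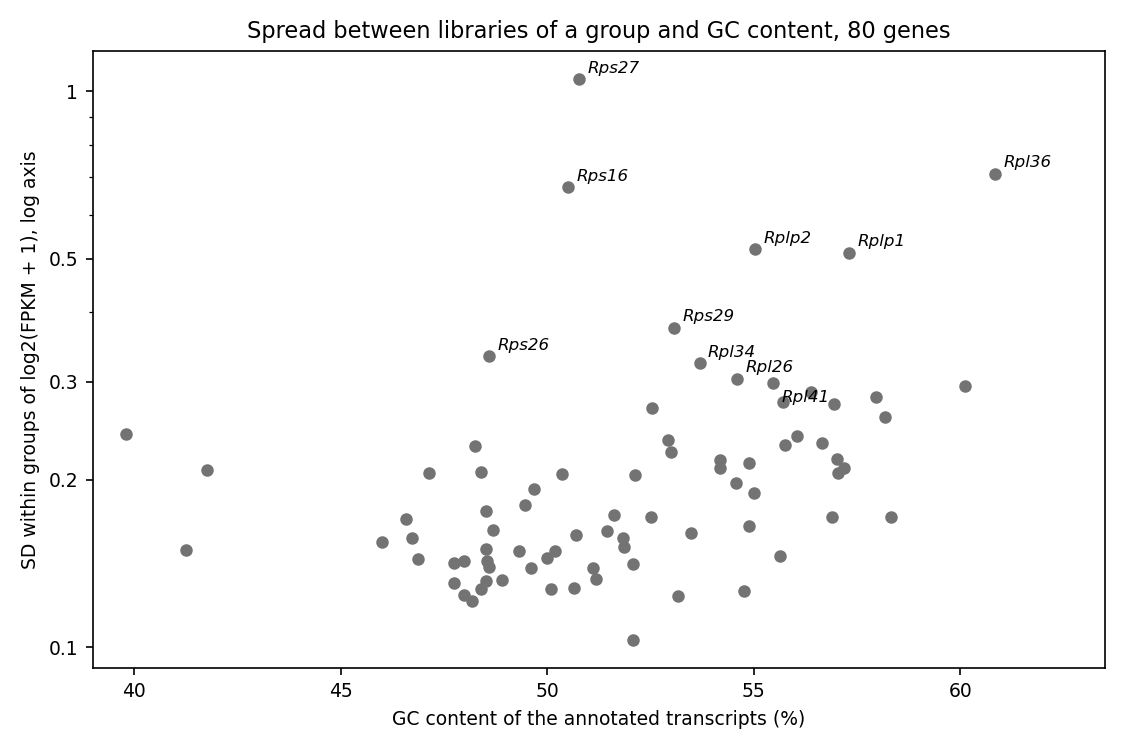
SD within groups of log2(FPKM + 1), on a log axis, against the mean GC content of the annotated transcripts, 1 point for each of the 80 tested genes, with the 10 most variable genes named. Rps27 and Rps16, near 51% GC, lie above the other genes of like GC content, and Rpl36 has the highest GC content, 60.8%.

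In related gene groups, 1 gene passed the test. Of 4 tested core ribosomal proteins that the naming rule leaves out, 0 passed the limma test in any comparison. Fau, made as a fusion to a ubiquitin-like protein, averaged 752 ± 116 and 756 ± 124 FPKM in SHP2-null and wild-type cells with BCR-ABL1, and 720.3 ± 69.5 and 675 ± 105 FPKM in SHP2-null and wild-type cells without it (SD, n = 4 each). Gnb2l1, which encodes the scaffold Rack1, averaged 1128 ± 164 and 1166 ± 144 FPKM with BCR-ABL1, and 1103 ± 95.2 and 1159 ± 149.8 FPKM without it, in the same order (SD, n = 4 each). Of 17 translation factors and other TOP mRNAs, 1 changed in BCR-ABL1 against no BCR-ABL1 in wild-type cells, where 4.67% of all genes did, and 0 in the other comparisons. This was Pabpc1, the polyA-binding protein, which averaged 120 ± 17.3 FPKM with BCR-ABL1 and 243 ± 93.6 FPKM without it in SHP2 wild-type cells (SD, n = 4 each), with a change of −0.94 ± 0.22 on the log2 scale (SE; adjusted p = 0.0239 by limma). A drop of that size was not seen in SHP2-null cells, where no gene of this list had an estimate below −0.16 for BCR-ABL1. The interaction called 0 genes of the list by limma, with a highest estimate of 0.78 and a lowest adjusted p of 0.839. This does not show that the BCR-ABL1 effect differed between SHP2 states. For SHP2 loss without BCR-ABL1 the lowest estimate of the list was −0.82, and 0 genes passed.

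Genes of ribosome assembly and of mitochondrial ribosomes had estimates mostly below 0 for SHP2 loss in cells with BCR-ABL1, and 0 of them passed the test. All 27 assembly and RNA polymerase I genes (such as Fbl, Ncl and Nop56) had estimates below 0, with a median of −0.15, and so did 75 of the 76 mitochondrial ribosomal protein genes, with a median of −0.12, beside 57.3% of all genes tested. In each of these lists 0 genes passed the limma test and 5 had an unadjusted p below 0.05, where 0.313% and 3.65% of all genes did. In cells without BCR-ABL1 the medians were −0.07 for the assembly genes and −0.05 for the mitochondrial genes, with 20 of 27 and 53 of 76 below 0, beside 44.1% of all genes. The lean was not limited to SHP2 loss. For BCR-ABL1 in SHP2-null cells 24 of 27 and 59 of 76 lay below 0, beside 52.4% of all genes. In wild-type cells 20 of 27 and 31 of 76 did, beside 40.2%. These counts are from the fit without a block or added scaling, and other fits of these lists are not reported here. Of 12 genes of mTOR and S6 kinase control (such as Mtor, Larp1 and Eif4ebp1), 0 passed the limma test in any comparison, and their median with SHP2 loss in cells with BCR-ABL1 was −0.01.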

How the data were processed

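PolyA RNA (150 ng per sample) entered a stranded mRNA kit and was read for 100 cycles from both ends, per the labels' protocols. The authors deposited FPKM values, 1 column per library, by gene symbol. Per the submitters' processing notes, Bowtie and Cufflinks were used with build mm10 (GRCm38). Versions, annotation, strand use and handling of multiply mapped reads were not given in sources used here. The per-library files equalled the series table in 16 of 16 libraries. Depth is unknown.

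The 23758 entries were summed to 23279 symbols (254 symbols were repeated, none of them a ribosomal protein gene). The analysis scale was log2(FPKM + 1), on which changes of low genes are understated. All 16 libraries entered 1 limma model of 4 group means (trend = TRUE), over the 10210 genes that reached 1 FPKM in 4 or more libraries; two-sided p-values were adjusted across all of them by Benjamini-Hochberg.

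Genes were named by rule: the stalk genes, 7 paralog pairs, Rpsa, Rps6, Rps19, Rpl5, Rpl6, Rpl11 and Rpl41 always; every call; the 3 largest rises and falls per comparison; the 5 highest and 5 lowest means; and genes not tested. The changes of Rpl3l, the core genes of low level, Rpl38, the variability and GC lists and the shared 100-base windows were chosen after values were seen. Values of some genes that this rule covers are not reported here. The genes and all lists were chosen with earlier results of these data known.

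Pairing by replicate number (0 to 3) was judged by how same-number deviations from group means correlated: 0.22 to 0.78 for SHP2 loss with BCR-ABL1, 0.19 to 0.51 without it, 0.24 to 0.68 for BCR-ABL1 in SHP2-null cells, and 0.055 to 0.64 in wild-type cells, where replicate 3 falls short of 0.1. Per the labels' protocols, sets with 1 library of each group were loaded together; that the number marks the set is not stated. Transcript lengths and GC content came from GENCODE M21 and start sequences from RefSeq, both GRCm38. Fits used limma 3.58.1 in R 4.3.3; tables were made in Python 3.11.15 with pandas 2.3.3 and numpy 2.4.6, permutations with scipy 1.17.1 and plots with matplotlib 3.10.9. Alternatives covered the pseudocount, the filter on low values, scaling, the samples fitted, the block, repeated symbols and leaving out each library.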

Additional observations from a re-analysis of the deposited data

Results flagged for a closer look

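Single libraries far from the other 3 of their group were looked for in 24 ribosomal protein genes and 2 summed measures, which gave 104 groups of 4. Of these, 10 held a library whose gap to the nearest other, as a part of the group's range, exceeded Dixon's 95% critical value for 4 samples, where chance gives about 1 in 20 groups. The groups share the same libraries and are not independent, so 1 library can give several of the flags. The genes searched were chosen after their values were seen.

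In replicate 3 of the SHP2-null cells without BCR-ABL1, Rps12 had 3365 FPKM against 2612 to 2719 in the other 3 libraries, Rpl41 had 3474 FPKM against 2534 to 2599, Rplp0 had 1229 FPKM against 981 to 1001, and Rpl3l had 0.169 FPKM against 0.549 to 0.621. In replicate 2 of the same group, Rps27 had 18.7 FPKM against 3.10 to 5.09, and the share of the summed FPKM was 21.8% against 23.8% to 23.9%. In replicate 1 of the SHP2-null cells with BCR-ABL1, Rps27 had 33.8 FPKM against 1.80 to 3.51. In replicate 2 of the wild-type cells with BCR-ABL1, Rplp0 had 1544 FPKM against 1089 to 1145. In replicate 3 of the wild-type cells without BCR-ABL1, Rpl22 had 180.3 FPKM against 156 to 159, and Rpl7l1 had 44.5 FPKM against 38.5 to 39.4.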

How the results depend on the processing

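With the replicate number as a block, 0 ribosomal protein genes were called in every comparison, while all genes called came to 48, 587, 1231, 538 and 0 for SHP2 loss with and without BCR-ABL1, BCR-ABL1 in wild-type and null cells, and the interaction. The count of ribosomal protein genes differed from 0 under 3 alternatives. Without a filter on low values it was 1 for BCR-ABL1 in wild-type cells (Rpl3l). With the block and scaling to non-ribosomal genes it was 1 for SHP2 loss without BCR-ABL1 (Rpl22l1, adjusted p = 0.0463) and 1 for BCR-ABL1 in wild-type cells (Rpl26, adjusted p = 0.0303). With the block and without the 4 libraries numbered 2 it was 2 for BCR-ABL1 in null cells (Rpl26, adjusted p = 0.0449, and Rpl30, adjusted p = 0.0485). With the block and scaling, all genes called were 396 and 713 of 10210 for these comparisons. With the block and without number 2 they were 417 of 10210. The last 2 fits, and the shares below, were added after seeing the data; the causes were not tested. As a share of the summed FPKM, the difference for SHP2 loss without BCR-ABL1 was −1.18 percentage points, more than the SD within groups, but −0.67 points without replicate 2 of the null cells. Ribosomal protein genes at an unadjusted p below 0.05 numbered up to 13 for BCR-ABL1 in null cells and 10 for SHP2 loss without BCR-ABL1 when scaled to non-ribosomal genes (21 and 17 with the block as well), and 7 for BCR-ABL1 in null cells without their replicate 1 with BCR-ABL1. The share of all genes below 0.05 in these fits is not given here, so these numbers have no background to be set against. Of 831 values of 31 named gene and comparison pairs, 816 kept direction and side of the threshold and 12 changed sign, none of them called. No pair was called as reported, and many were named for having the largest changes. The 816 therefore does not measure how steady the direction was over all 80 genes. Over those, the count below 0 for BCR-ABL1 in wild-type cells ran from 8 to 67 with single libraries left out. Leaving out 1 library at a time, log2 changes for SHP2 loss with BCR-ABL1 ran from −0.022 to 0.12 for Rpl17, −0.14 to 0.50 for Rps16 and −0.12 to 1.09 for Rps27, and for SHP2 loss without BCR-ABL1 from −0.067 to 0.34 for Rplp2 and −0.076 to 0.53 for Rps16. For BCR-ABL1 in wild-type cells they ran from −0.47 to 0.21 for Rps16, −0.028 to 0.17 for Rpl13a (−0.0100 with the block and without number 2) and −0.017 to 0.18 for Rpl35. All genes called numbered 32, 157, 477, 129 and 0 as reported, and ranged over the alternatives from 11 to 48, 34 to 587, 186 to 1231, 30 to 538 and 0 to 3 in the same order. The lowest came with a filter at a mean of 5 FPKM (11 and 186) or from fitting only the groups compared (34 and 30). Unknown depth, reads shared with pseudogenes and 4 libraries a group limit what can be detected.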
